A study of Homo sapiens with 8 samples.

Results

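The receptor for type I interferon and the JAK-STAT proteins behind it were described in 4 established cell lines of human ovarian cancer (OVCAR-3, CAOV-3, DOV-13 and SKOV-3), each measured with and without pI:pC. The 9 genes were IFNAR1, IFNAR2, JAK1, JAK2, TYK2, STAT2, IRF9, SOCS1 and SOCS3. They were chosen by name, and a probe set was taken when its only symbol in the array annotation was one of these. That gave 15 probe sets for 8 genes, of 22277 on the array. IRF9, JAK1, TYK2 and IFNAR1 have 1 probe set each, IFNAR2 and JAK2 have 2 each, SOCS3 has 3 and SOCS1 has 4. STAT2 had no probe set under this rule and was not analysed here.

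Total RNA was measured on 8 Affymetrix arrays, 4 from cells given pI:pC and 4 from untreated cells. pI:pC, short for polyriboinosinic:polyribocytidylic acid, is made in the laboratory to mimic the double-stranded RNA of viruses. Each line gave 1 treated and 1 untreated array, all lines were grown in the same serum-containing medium, and pI:pC was given at more than 1 concentration, per the labels' protocols. No label ties a concentration or an exposure time to an array, so a difference in response between lines and a difference in dose or time cannot be told apart. Values are log2 expression levels, and a difference of 1 is a doubling. Where 4 values stand in a row without line names, they run from SKOV-3 through DOV-13 and CAOV-3 to OVCAR-3. Each line stands for 1 tumour, and the labels do not say whether an array held 1 culture or a pool.

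Type I interferons bind a receptor made of IFNAR1 and IFNAR2, whose tails carry the kinases TYK2 and JAK1. The kinases phosphorylate STAT2, which acts with IRF9 in ISGF3, the factor that switches on interferon-stimulated genes. IRF9 is itself one of the genes that interferon induces. JAK2 serves other receptors, among them that of interferon gamma. SOCS1 and SOCS3 are induced feedback inhibitors that bind receptors or kinases and end the signal, SOCS1 mainly for interferons and SOCS3 mainly for cytokines of the interleukin 6 family.

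The promoters of IRF9 and SOCS1 are shown because, of the members, IRF9 had the largest difference after pI:pC and SOCS1 was the member whose promoter held a match to the ISGF3 motif. RefSeq promoter windows (GRCh38.p14, 250 bases before to 50 after each start) were found for 8 of the 9 member genes, 15 windows in all, and IFNAR2 was not among them. Both strands were searched for the core of the element that ISGF3 binds (GAAA, any 2 bases, then GAAA again, here called the ISRE core), and for TTCNNNGAA, the palindrome that STAT dimers bind, which reads the same on both strands. The ISRE core occurred in 1 of the 15 member windows, that of SOCS1, and in 3.57% of all 35116 windows. TTCNNNGAA occurred in 1 of the 15, that of IRF9, and in 7.66% of all windows. The matches did not overlap each other. The 250 bases before the start of IRF9 lie on the plus strand at chr14:24161015-24161264, with TTCNNNGAA in capitals at position -63. Those of SOCS1 lie on the minus strand at chr16:11256205-11256454, with the ISRE core in capitals at position -113.
IRF9: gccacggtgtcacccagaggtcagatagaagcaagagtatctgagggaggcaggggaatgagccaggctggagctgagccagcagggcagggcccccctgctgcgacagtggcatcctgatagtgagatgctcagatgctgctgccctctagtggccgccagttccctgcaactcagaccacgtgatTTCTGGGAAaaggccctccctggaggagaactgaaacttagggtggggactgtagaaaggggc
SOCS1: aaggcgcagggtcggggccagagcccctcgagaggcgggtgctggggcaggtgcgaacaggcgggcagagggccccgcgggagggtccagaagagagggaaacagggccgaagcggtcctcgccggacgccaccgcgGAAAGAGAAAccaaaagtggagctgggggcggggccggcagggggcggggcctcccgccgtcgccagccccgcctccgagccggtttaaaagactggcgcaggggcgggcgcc
A match is a run of letters and not a measured site, and no binding was measured in these samples.

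The median array value lay between 6.19 and 6.30 on all 8 arrays. Arrays of 1 line correlated at 0.992 to 0.997 over all probe sets and arrays of different lines at 0.897 to 0.947. Of 13 epithelial and ovarian carcinoma markers, 7 were at or above the median of the untreated array in SKOV-3, 5 in DOV-13, 11 in CAOV-3 and 12 in OVCAR-3. The 5 above it on all 8 arrays include the keratin gene KRT18 (11.52 to 12.59) and the lineage factor gene PAX8 (8.06 to 10.60). MUC16, which encodes the antigen CA-125, lay at 9.59 in untreated OVCAR-3 and at 4.13, 4.05 and 4.80 in SKOV-3, DOV-13 and CAOV-3. The adhesion gene CDH1 lay at 9.70 and 9.41 in untreated CAOV-3 and OVCAR-3 but at 3.74 and 3.59 in SKOV-3 and DOV-13. The pan-leukocyte gene PTPRC lay between 4.11 and 4.41, and 9 of 10 leukocyte markers were below the median of every array. The exception was CD14, at 7.06 in untreated CAOV-3. Of 6 fibroblast markers 2 were at or above the median of the untreated array in SKOV-3, 1 in DOV-13, 1 in CAOV-3 and 2 in OVCAR-3. Of 6 endothelial markers 1 was, in OVCAR-3, and 0 were in the other lines. With lines paired in limma, 0 of 22215 probe sets passed an adjusted p under 0.05 (0% of all), and the smallest adjusted p was 0.996.

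Of the 15 member probe sets only that of IRF9 differed by at least 1 on the log2 scale in any line. IRF9 was higher after pI:pC in OVCAR-3 by 2.11 and in CAOV-3 by 0.81, and its differences were -0.03 for SKOV-3 and -0.21 for DOV-13. The other 14 probe sets, for the receptor chains, the kinases and the SOCS inhibitors, differed by between -0.38 and 0.37 in any line. Their mean changes over the lines lay between -0.18 and 0.14. The 95% limma intervals of these 14 mean changes lay within -0.36 and 0.29 on the deposited scale. No member passed over all probe sets, 1 of the 15 (IFNAR1) had an unadjusted p under 0.05 against 3.85% of all probe sets, and the treated and untreated arrays overlapped for all 15 (0.32% of all probe sets did not overlap).

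**Figure D1:**
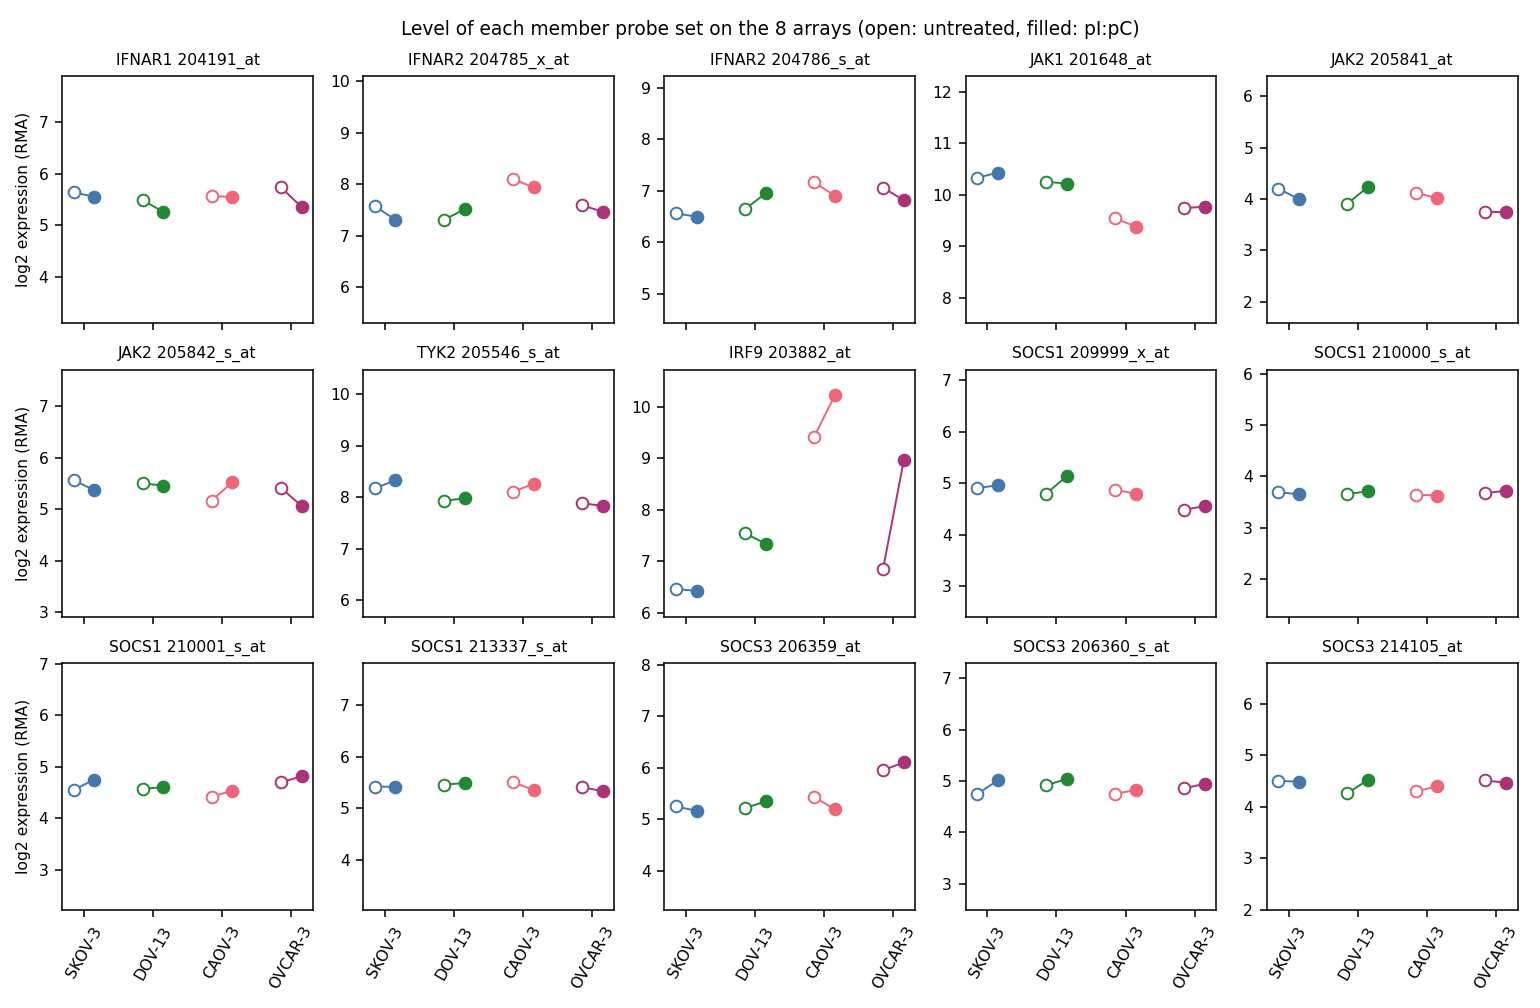
Log2 expression of each of the 15 member probe sets (1 panel each, log2 axis with the same span in every panel) in the 4 lines, open circles untreated and filled circles pI:pC, 1 array per circle and a line joining the arrays of 1 cell line. IRF9 stands at 9.42 in untreated CAOV-3 and climbs from 6.86 to 8.97 in OVCAR-3, while the circles of the other panels lie close together within a line.

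The receptor chains differed little between treated and untreated arrays. IFNAR1 (204191_at), the chain that carries TYK2, had untreated levels of 5.64 in SKOV-3, 5.49 in DOV-13, 5.57 in CAOV-3 and 5.74 in OVCAR-3. Its treated levels were 5.55, 5.26, 5.55 and 5.35 in the same order. It was lower in all 4 lines, by as little as 0.02 in CAOV-3 and as much as 0.38 in OVCAR-3, and the groups overlapped. The mean change was -0.18 ± 0.16 (SD, n = 4 lines; limma adjusted p = 0.996). All 8 IFNAR1 values were below the median of their array, where RMA compresses differences.

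IFNAR2, the chain that carries JAK1, was measured by 204785_x_at and 204786_s_at. By Affymetrix naming, an x_at set holds probes that can match other transcripts and an s_at set holds probes shared by several transcripts. 204785_x_at had untreated levels of 7.58 in SKOV-3, 7.31 in DOV-13, 8.10 in CAOV-3 and 7.59 in OVCAR-3, and treated levels of 7.31, 7.52, 7.94 and 7.47. 204786_s_at had untreated levels of 6.56, 6.64, 7.16 and 7.06 and treated levels of 6.49, 6.95, 6.91 and 6.81 in that order. The probe sets had the same sign in 4 of 4 lines, higher in DOV-13 (0.21 and 0.31) and lower in the other 3. Their mean changes were -0.08 ± 0.21 and -0.07 ± 0.26 (SD, n = 4 lines; limma adjusted p = 0.996 for each), so the spread between lines was larger than the change.

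JAK1 (201648_at), the kinase on IFNAR2, had untreated levels of 10.33 in SKOV-3, 10.25 in DOV-13, 9.54 in CAOV-3 and 9.74 in OVCAR-3. Its treated levels were 10.43, 10.21, 9.38 and 9.77. Each treated value lay within 0.16 of its untreated partner, and the mean change was -0.02 ± 0.11 (SD, n = 4 lines; limma 95% interval -0.17 to 0.14). TYK2 (205546_s_at), the kinase on IFNAR1, had untreated levels of 8.17, 7.93, 8.11 and 7.89 and treated levels of 8.33, 7.98, 8.27 and 7.83. It was higher in 3 of 4 lines, by 0.16 in SKOV-3 and CAOV-3 and by 0.05 in DOV-13, with a mean of 0.08 ± 0.10 (SD, n = 4 lines; limma adjusted p = 0.996).

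JAK2, a kinase of the interferon gamma receptor, was dim in both of its probe sets, with all 8 values of each below the array median. 205841_at had untreated levels of 4.20, 3.91, 4.13 and 3.75 and treated levels of 3.999, 4.23, 4.01 and 3.74. 205842_s_at had 5.57, 5.51, 5.17 and 5.42 untreated and 5.37, 5.46, 5.53 and 5.07 treated. The probe sets had the same sign in 2 of 4 lines and opposite signs in DOV-13 and CAOV-3. In CAOV-3 205842_s_at was higher by 0.37 while 205841_at was lower by 0.12. Their mean changes were -0.00056 ± 0.23 and -0.06 ± 0.31 (SD, n = 4 lines), and neither passed limma over all probe sets.

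IRF9 (203882_at), the DNA-binding partner of the STATs in ISGF3, separated the lines. Its untreated levels were 6.46 in SKOV-3, 7.55 in DOV-13, 9.42 in CAOV-3 and 6.86 in OVCAR-3. Its treated levels were 6.43, 7.34, 10.22 and 8.97 in the same order. The lines with a difference upward were the one that started highest, CAOV-3, and one that started low, OVCAR-3. The treated level of OVCAR-3 was still below the untreated level of CAOV-3, so treated and untreated arrays overlapped. In linear terms the treated array was 4.32-fold higher in OVCAR-3 and 1.75-fold higher in CAOV-3, and 1.02-fold and 1.15-fold lower in SKOV-3 and DOV-13. In bulk RNA, a larger share of responding cells and more RNA per cell cannot be told apart.

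Among all probe sets the difference of IRF9 ranked 17th from the top in OVCAR-3 and 257th in CAOV-3. Only 0.072% of probe sets differed more in size in OVCAR-3, 1.53% did in CAOV-3, and the shares for DOV-13 and SKOV-3 were 17.8% and 84.4%. A probe set was counted in a line when it differed by at least 1 and its higher value reached the median of the array pair, and 0.144% of all probe sets were counted as higher in OVCAR-3 (0.0045% in SKOV-3, 0.018% in DOV-13 and 0.725% in CAOV-3). IRF9 was counted in OVCAR-3 alone. No member was counted as lower, where 0.0135% of all probe sets were in SKOV-3, 0.009% in DOV-13, 0.135% in CAOV-3 and 0.009% in OVCAR-3. At a limit of 1.5-fold IRF9 was also counted in CAOV-3. With 1 array per condition a line has no replicate check, and these counts describe the array pairs.

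Over the 4 lines the mean change of IRF9 was 0.67 ± 1.06 (SD, n = 4 lines), with a 95% limma interval of -0.11 to 1.46 and an adjusted p of 0.996. The SD exceeded the mean, and 2 lines were higher and 2 lower. Without OVCAR-3 the mean was 0.191, and without SKOV-3, DOV-13 or CAOV-3 it was 0.905, 0.964 or 0.626. IRF9 did not pass the test in any of these fits, with adjusted p-values from 0.736 to 1.

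**Figure D2:**
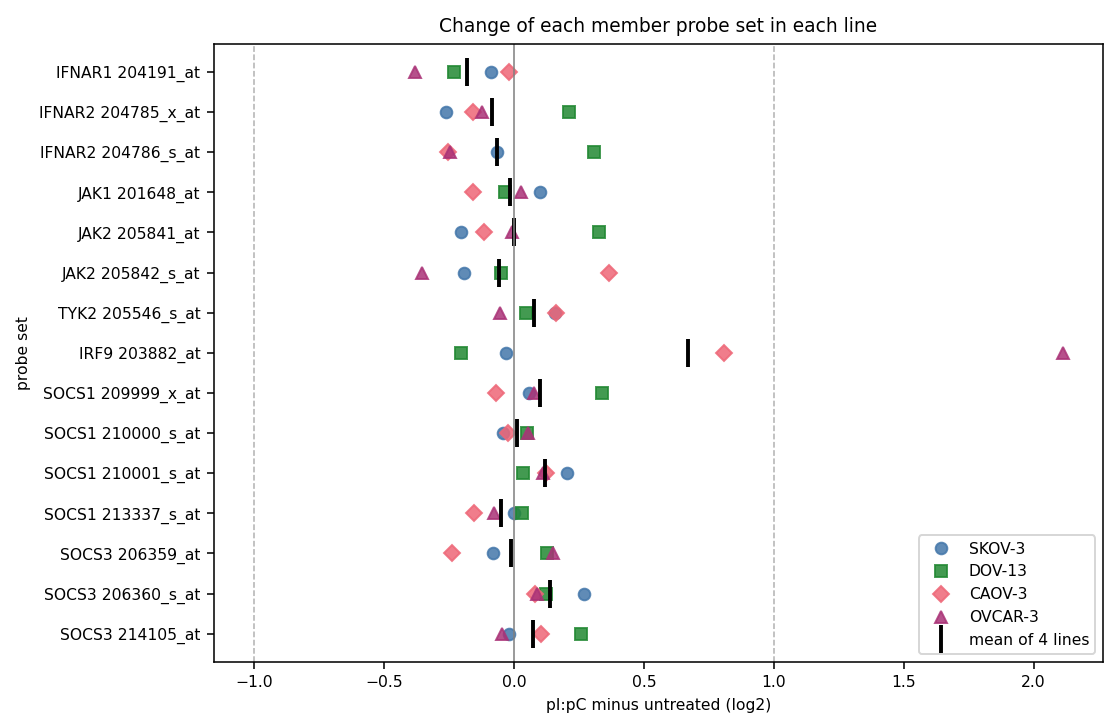
pI:pC minus untreated log2 value (x axis) of the 15 member probe sets (y axis), with 1 marker per line, a black bar at the mean of the 4 lines and dashed lines at -1 and 1. IRF9 in OVCAR-3 (2.11) is the only marker beyond a dashed line, and IRF9 in CAOV-3 (0.81) is next.

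SOCS1, the feedback inhibitor of interferon signalling, was measured by 4 probe sets, all below the array median on all 8 arrays. 209999_x_at had untreated levels of 4.91 in SKOV-3, 4.80 in DOV-13, 4.87 in CAOV-3 and 4.49 in OVCAR-3 and treated levels of 4.96, 5.14, 4.80 and 4.56. 210001_s_at had 4.55, 4.57, 4.42 and 4.70 untreated and 4.75, 4.61, 4.54 and 4.81 treated, and was the SOCS1 probe set with 1 sign in all lines. The 4 did not share a sign in every line, and those with the highest and the second highest mean level, 213337_s_at and 209999_x_at, had the same sign in 2 of 4 lines. 210000_s_at lay between 3.63 and 3.73 on every array. 213337_s_at lay between 5.33 and 5.50. The mean changes of 209999_x_at, 210000_s_at, 210001_s_at and 213337_s_at were 0.10 ± 0.17, 0.01 ± 0.05, 0.12 ± 0.07 and -0.05 ± 0.08 (SD, n = 4 lines), none of which passed limma over all probe sets.

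SOCS3, the feedback inhibitor of the interleukin 6 family receptors, was also dim in its 3 probe sets. 206359_at had untreated levels of 5.25 in SKOV-3, 5.22 in DOV-13, 5.43 in CAOV-3 and 5.95 in OVCAR-3 and treated levels of 5.17, 5.35, 5.19 and 6.10. 206360_s_at had 4.74, 4.92, 4.75 and 4.86 untreated and 5.01, 5.04, 4.83 and 4.95 treated, higher in every line by 0.08 to 0.27. 214105_at had 4.50, 4.26, 4.29 and 4.51 untreated and 4.48, 4.52, 4.40 and 4.46 treated. Only OVCAR-3 stood apart, in 206359_at, and it did so before treatment. The mean changes were -0.01 ± 0.18, 0.14 ± 0.09 and 0.07 ± 0.14 (SD, n = 4 lines), and any 2 of the SOCS3 probe sets had the same sign in 2 of 4 lines.

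In all, 3 of the 15 member probe sets had 1 sign in all 4 lines, IFNAR1 lower and 1 probe set each of SOCS1 and SOCS3 higher, against 11.5% of all probe sets. Those 3 are dim. In DOV-13 11 of the 15 were higher, with a median of 0.05 beside 0.04 over all probe sets, and 7211 of all 11963 genes were higher there. In SKOV-3, CAOV-3 and OVCAR-3 5, 6 and 7 of the 15 were higher, beside 6687, 5501 and 5538 of the 11963 genes.

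Several members differed in level between the lines. Levels were compared with limma's F test over the 4 lines with treatment as a term, using both arrays of a line, so its error is the spread of the treatment change between lines. At an adjusted p under 0.05 it called 6 of the 15 member probe sets (40%), against 65.5% of all probe sets. The 6 were JAK1 (adjusted p = 0.000179), 206359_at of SOCS3 (0.00102), IRF9 (0.00192), 204785_x_at of IFNAR2 (0.0076), TYK2 (0.0171) and 209999_x_at of SOCS1 (0.0261). The lower share among members goes with their levels, as 10 of the 15 lay below the median on all 8 arrays. With only probe sets whose mean level reached the median of all, 5 members were left and all 5 were called.

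The order of the untreated levels differed from gene to gene. IRF9 was highest in CAOV-3, then DOV-13, OVCAR-3 and SKOV-3. With both arrays CAOV-3 exceeded DOV-13 by 2.38 ± 0.48 (SE, limma adjusted p = 0.00414, 46.4% of all probe sets called) and OVCAR-3 exceeded SKOV-3 by 1.47 ± 0.48 (adjusted p = 0.0363, 47.1% of all called), while DOV-13 and OVCAR-3 were not separated (adjusted p = 0.476). DOV-13 and SKOV-3 were not separated either, with IRF9 higher in DOV-13 by 1 ± 0.48 (SE, limma adjusted p = 0.159, 34.8% of all called). The levels in these comparisons include the treated array of each line. On the untreated arrays alone, IRF9 in OVCAR-3 lay 0.40 above SKOV-3. In CAOV-3 it lay 1.87 above DOV-13 and 2.96 above SKOV-3. For JAK1 the ends of the order, SKOV-3 and CAOV-3, changed places. JAK1 was highest in SKOV-3 and DOV-13, which were not separated (limma adjusted p = 0.314), followed by OVCAR-3 and then CAOV-3. JAK1 in DOV-13 exceeded OVCAR-3 by 0.48 ± 0.10 (SE, adjusted p = 0.00389) and OVCAR-3 exceeded CAOV-3 by 0.29 ± 0.10 (adjusted p = 0.036). Of all probe sets 46% were called between OVCAR-3 and DOV-13, 47.4% between OVCAR-3 and CAOV-3 and 46.8% between CAOV-3 and SKOV-3. Between those last lines IRF9 was 3.38 ± 0.48 higher in CAOV-3 (SE, limma adjusted p = 0.000615) and JAK1 lower, at -0.92 ± 0.10 (adjusted p = 0.000113).

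IFNAR2 was highest in CAOV-3 in both probe sets. 204785_x_at exceeded OVCAR-3 there by 0.49 ± 0.12 (SE, limma adjusted p = 0.0118), and its other 3 lines were not separated. SOCS3 by 206359_at was highest in OVCAR-3, by 0.71 ± 0.12 over CAOV-3 (SE, adjusted p = 0.00133), and the remaining lines were not separated from their neighbours. SOCS1 by 209999_x_at was lowest in OVCAR-3, by 0.45 ± 0.11 under DOV-13 (SE, limma adjusted p = 0.0121). For that probe set OVCAR-3 minus CAOV-3 was -0.31 ± 0.11 and was not called (SE, limma adjusted p = 0.0505). The SOCS1 probe set 210001_s_at went the other way and was highest in untreated OVCAR-3 (4.70). No neighbours in the untreated order of TYK2 were separated, but lines further apart in it were. OVCAR-3 minus SKOV-3 was -0.39 ± 0.09 (SE, limma adjusted p = 0.00958), OVCAR-3 minus CAOV-3 was -0.33 ± 0.09 (0.0218) and DOV-13 minus SKOV-3 was -0.30 ± 0.09 (0.042, 34.8% of all called). For IFNAR1, JAK2, 204786_s_at of IFNAR2 and the remaining SOCS1 and SOCS3 probe sets no neighbours in the order were separated. Among these, lines further apart were separated for 204786_s_at, by 0.51 ± 0.14 for CAOV-3 minus SKOV-3 (SE, limma adjusted p = 0.02) and 0.41 ± 0.14 for OVCAR-3 minus SKOV-3 (0.0469), and for 210001_s_at of SOCS1, by 0.28 ± 0.09 for OVCAR-3 minus CAOV-3 (0.0313). The F test over all lines called neither probe set.

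Some of these calls rested on 1 line. Without CAOV-3 the F test no longer called IRF9 (adjusted p = 0.0936) or 204785_x_at of IFNAR2 (0.702), and 4 of the 15 were called, against 58.1% of all probe sets. Without OVCAR-3 it no longer called 206359_at of SOCS3 (0.723), 209999_x_at of SOCS1 (0.642) or TYK2 (0.0734), and 3 of the 15 were called, against 53.8% of all probe sets. Without DOV-13 it also called 204786_s_at of IFNAR2 (0.00923) and 205841_at of JAK2 (0.0339), 8 of the 15 against 58.6%. Without SKOV-3 6 were called, against 61.9%.

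Genes that ISGF3 is known to switch on were set beside IRF9. The list was chosen with earlier results of these data known, so its counts are a description and not a test. Of 24 such genes 23 were measured, and all 23 had a positive mean change (53.7% of all 11963 genes did), with a median of 0.91 beside 0.0072 over all genes. Of the 23, 10 were higher in all 4 lines, against 6.88% of all genes. In CAOV-3 20 of the 23 were counted as higher (0.928% of all genes) and in OVCAR-3 14 (0.226%). In SKOV-3 1 was counted, IFI44 (0.00836%), and in DOV-13 0 were (0.0167%). Their median difference was 1.97 in CAOV-3, 1.53 for OVCAR-3, 0.12 for SKOV-3 and 0.145 for DOV-13. The target median was larger in CAOV-3 than in OVCAR-3, and the IRF9 difference was larger in OVCAR-3 than in CAOV-3. In CAOV-3 22 of the 23 targets differed more than IRF9 did, and in OVCAR-3 9 of the 23 did. None of the 23 passed limma over all probe sets, and 18 had an unadjusted p under 0.05, against 450 of all 11963 genes.

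The largest mean changes among these targets were those of IFI44L, IFIT1, which binds viral RNA, and IFI44. IFI44L had untreated levels of 3.99, 3.86, 7.84 and 4.22 and differed by -0.18, 0.06, 2.89 and 5.52. IFIT1 had 5.31, 6.02, 9.27 and 5.19 and differed by 0.81, -0.01, 2.52 and 4.22. IFI44 had 5.40, 7.28, 9.56 and 5.57 and differed by 1.48, 0.35, 1.82 and 3.32. In these 3 genes, as in IRF9, CAOV-3 started highest and OVCAR-3 had the largest difference. That did not hold for the list as a whole, whose median difference was larger in CAOV-3 (1.97) than in OVCAR-3 (1.53).

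**Figure D3:**
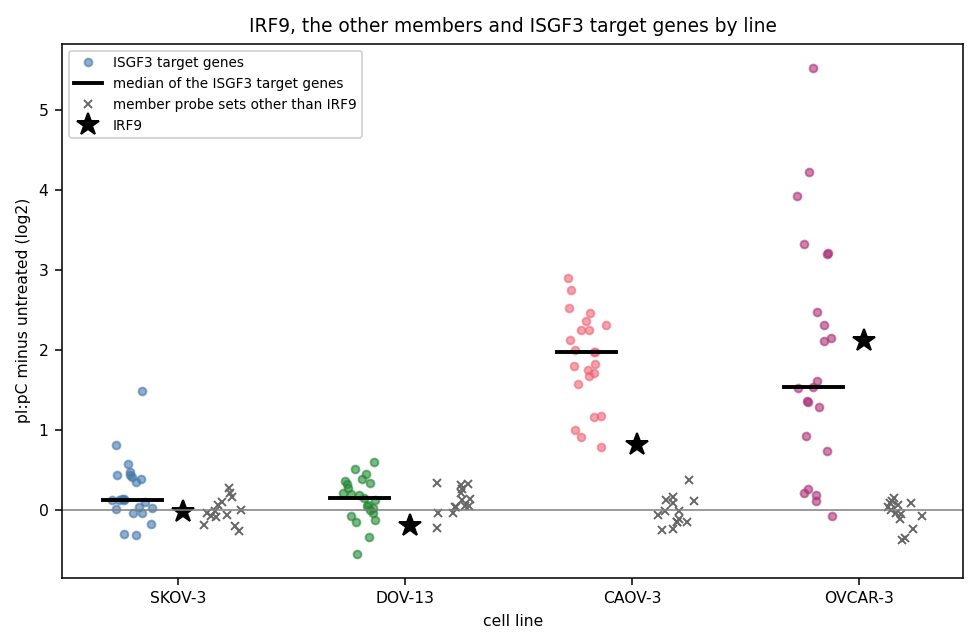
pI:pC minus untreated log2 value (y axis) in each line (x axis) for the 23 ISGF3 target genes (circles, bar at their median), the 14 member probe sets other than IRF9 (crosses) and IRF9 (star), 1 array pair per line. The target medians are 0.12, 0.145, 1.97 and 1.53 from SKOV-3 through DOV-13 and CAOV-3 to OVCAR-3, and the crosses stay between -0.38 and 0.37 in all lines.

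Before treatment CAOV-3 had the highest levels of IRF9 and of most targets. Its IRF9 level was 1.85 above the mean of the 4 untreated arrays, against -1.11 in SKOV-3, -0.02 in DOV-13 and -0.71 in OVCAR-3. Of the 23 targets 20 were highest in untreated CAOV-3, where 23.9% of all genes were highest, and their median was 1.42 above the mean of the lines. The median of the targets was -0.62 in SKOV-3, -0.20 in DOV-13 and -0.50 in OVCAR-3 on the same scale. The line F test, which uses the treated arrays as well, called the level of 21 of the 23 (69.4% of all genes). It does not test the untreated levels alone. Those are levels of 1 untreated array per line, and the labels do not say whether cultures were matched in density or passage.

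**Figure D4:**
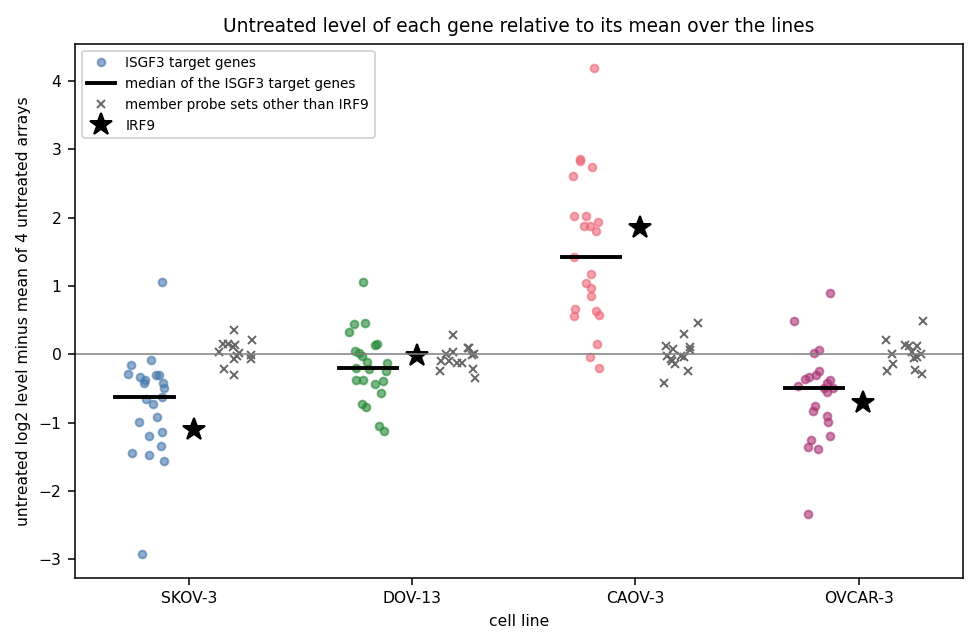
Untreated log2 level minus the mean of the 4 untreated arrays (y axis) in each line (x axis) for the 23 ISGF3 target genes (circles, bar at their median), the 14 other member probe sets (crosses) and IRF9 (star), with 1 array per line. In CAOV-3 the target median is 1.42 and IRF9 is 1.85, and in the other lines both are below 0.

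The ligands were dim. Of 15 type I interferon genes 13 were measured, 12 of them below the median on all arrays, with list medians between 4.21 and 4.42 on every array. The largest mean changes in size were 0.11 for IFNA4, 0.11 for IFNW1 and 0.11 for IFNA10. Of the 13, 0 passed limma over all probe sets. At an unadjusted limma p under 0.05 there were also 0, against 450 of all 11963 genes. Interferon alpha genes resemble each other closely, and a probe set for 1 of them may detect others. The line F test called none of the 13, against 69.4% of all genes.

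Other receptors that use these kinases were measured for 14 of 15 genes. Their median mean change was 0.13, 10 were positive (53.7% of all genes were) and 0 passed over all probe sets. An unadjusted limma p under 0.05 was reached by 2, against 450 of all 11963 genes. The 3 largest mean changes on the list were those of IL7R, IL6ST and IL4R, the chains for interleukin 7, the interleukin 6 family and interleukin 4. IL7R had untreated levels of 5.81 in SKOV-3, 7.41 in DOV-13, 6.56 in CAOV-3 and 5.67 in OVCAR-3 and differed by 0.30, 0.12, 1.38 and 0.14. IL6ST, at 10.12, 10.80, 9.53 and 9.59 untreated, differed by 0.10, 0.33, 0.68 and 0.10, and IL4R by 0.07, 0.22, 0.49 and -0.01. Each of these was highest in difference in CAOV-3, and the mean changes were 0.49, 0.30 and 0.19.

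The remaining kinases and STATs, measured for 6 of 7 genes, had a median mean change of -0.0012, with 3 positive (53.7% of all genes) and 0 passing. An unadjusted limma p under 0.05 was reached by 1, against 450 of all 11963 genes. On this list STAT4 had the largest mean change, -0.18, then JAK3 with -0.13 and STAT6 with 0.07. All 6 were lower after treatment in CAOV-3, where 5501 of 11963 genes were higher, and all 6 were higher in SKOV-3, where 6687 were. STAT6, the STAT of interleukin 4 signalling, lay at 8.78 in SKOV-3 and 8.31 in DOV-13 but at 6.68 in CAOV-3 and 6.79 in OVCAR-3 untreated.

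Of 17 other negative regulators 15 were measured, with a median mean change of 0.011, 8 positive (53.7% of all genes) and 0 passing. An unadjusted limma p under 0.05 was reached by 1, against 450 of all 11963 genes. The largest mean change on the list was that of USP18, the protease that removes ISG15 and binds IFNAR2 to dampen signalling. USP18 had untreated levels of 4.54, 6.24, 9.65 and 6.81 and treated levels of 4.66, 6.30, 11.45 and 7.78. It was higher by 1.81 in CAOV-3 and 0.98 in OVCAR-3, with a mean of 0.74. SOCS2, an inhibitor of growth hormone signalling, had a mean of 0.22 with 0.55 in CAOV-3, and PIAS3, which binds STAT3, had -0.12 and was lower in all 4 lines.

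STAT3 target genes, which interleukin 6 family signals induce, had small differences. The list includes SOCS3. Of 16 genes 14 were measured, with a median mean change of 0.027 and 0 passing. An unadjusted limma p under 0.05 was reached by 1, against 450 of all 11963 genes. The median difference of the 14 in CAOV-3 was -0.02, and 0.04 in OVCAR-3. MYC had the largest mean change, 0.29, and went from 6.92 to 8.03 in CAOV-3. The fibrinogen chain gene FGB had -0.17 and was lower in all 4 lines, and LBP, which binds bacterial lipopolysaccharide, had -0.12.

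Across the 8 arrays the genes whose values ran most nearly with IRF9 were IFIH1 (Pearson r = 0.978), the double-stranded RNA sensor MDA5, the RNA-editing enzyme gene ADAR (0.969) and LAMP3 (0.965). IFIH1, which is also among the ISGF3 targets, differed by 0.38, -0.08, 2.46 and 2.47, ADAR by 0.03, -0.15, 0.54 and 0.50, and LAMP3 by 0.03, 0.73, 2.99 and 2.39. Like IRF9, all 3 were highest in CAOV-3 both without and with pI:pC. For JAK1 they were ARRB1 (0.996), CDC14B (0.994) and GLTP (0.993), for TYK2 KEAP1 (0.989), SGF29 (0.977) and NPLOC4 (0.972), and for IFNAR2 PPP4R2 (0.983), ATRX (0.979) and NCOA1 (0.978). For SOCS3 they were CYP4B1 (0.990), DHX40 (0.987) and HTR2C (0.987), for SOCS1 CRHR1 (0.953), H2AZ2 (0.937) and INSIG1 (0.921), for JAK2 IRF5 (0.933), LENEP (0.926) and LINC00663 (0.910), and for IFNAR1 HACL2 (0.925), AFF1 (0.915) and KRT83 (0.909). These correlations are over 8 arrays of which each pair shares a line, are the highest of many probe sets, and are given as a description. For IFNAR2, JAK2, SOCS1 and SOCS3 they hold only for the probe set with the highest mean (204785_x_at, 205842_s_at, 213337_s_at and 206359_at).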

How the data were processed

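The 8 arrays held total RNA of 4 cell lines, each treated and untreated. The authors deposited log2 expression levels, and the submitters' processing notes name RMA. RMA commonly subtracts background, equalises array distributions and combines the probes of a set. Its version is not given in the sources used here. Probe sets were named from the supplied platform annotation: 19070 carry 1 symbol, 1043 several, and 2164 are not named here. The 62 array controls were left out of tests.

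Arrays were paired by cell line, and the 2 arrays of each line deviated together from their group means (r from 0.936 to 0.965). Treatment was tested in limma 3.58.1 under R 4.3.3 with the line as a block, 3 residual and 4.59 prior degrees of freedom, two-sided, with Benjamini-Hochberg adjustment over 22215 probe sets. Its p-values measure the spread between lines, and no error within a line is known. The script was tested on simulated data. For the wider lists the probe set with the highest mean stood for a gene. From each list the 3 genes with the largest mean change are named, and for each member the 3 genes with the highest correlation. KRT18, PAX8, MUC16, CDH1, PTPRC and CD14 were picked from fixed marker lists after their values were seen. Members and lists were chosen with earlier results of these data known. Alternatives tried were no block, a level filter, quantile normalization, median centring, eBayes with trend and robust, other probe set choices, other counting limits, and leaving out each line.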

Additional observations from a re-analysis of the deposited data

How the results depend on the processing

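With 4 lines, 1 array per condition and 10 of the 15 member probe sets below the array median throughout, changes in dim probe sets are limited by background, which is not given. Under every alternative 0 probe sets passed for treatment, members included. Without the cell line as a block the mean change of IRF9 stayed at 0.671 with an adjusted p of 1, and the block changed no other call. The adjusted p of IRF9 ranged from 0.736 (without SKOV-3) to 1.

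Leaving out 1 line turned the sign of 5 member mean changes, and moved that of JAK1 between -0.056 and 0.0303, of JAK2 between -0.109 and 0.0678 (205841_at) and between -0.199 and 0.0411 (205842_s_at), of SOCS3 206359_at between -0.0654 and 0.0646, and of SOCS1 210000_s_at between -0.0042 and 0.0277. The other 10 kept their sign: IRF9 ranged from 0.191 to 0.964, IFNAR1 from -0.234 to -0.112, IFNAR2 from -0.182 to -0.0231 (204785_x_at) and from -0.189 to -0.00222 (204786_s_at), TYK2 from 0.0498 to 0.121, SOCS1 from 0.0214 to 0.157 (209999_x_at), from 0.0898 to 0.146 (210001_s_at) and from -0.0772 to -0.0157 (213337_s_at), and SOCS3 from 0.0966 to 0.16 (206360_s_at) and from 0.0136 to 0.114 (214105_at). SOCS1 210000_s_at also turned to -0.00207 with quantile normalization and -0.0024 with median centring. None of these passed in any fit.

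Member probe sets whose level differed between lines numbered 3 (without OVCAR-3, 53.8% of all probe sets) to 8 (without DOV-13, 58.6%), against 6 with all lines (65.5%). With all lines they numbered 8 with median centring, 7 with quantile normalization and 7 with no treatment term. In these fits 14642, 14570 and 14815 of all 22215 probe sets were called. The level filter kept 5 of the 15 members, and all 5 were called, among 10192 probe sets called in that fit. At a limit of 1.5-fold 91 probe sets were counted in SKOV-3, 70 in DOV-13, 603 in CAOV-3 and 98 in OVCAR-3, and 1 member (IRF9) in CAOV-3. With no condition on the level 7 were counted in SKOV-3, and with 1 probe set per gene 3 in DOV-13. The median mean change of the other kinases and STATs turned from -0.00121 to 0.0147 with the most variable probe set, and that of the other negative regulators from 0.0114 to -0.000375 with the mean of a gene's probe sets.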

Other observations

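A further probe set, 220788_s_at, carries both RNF31 and IRF9 in the annotation and was outside the rule. RNF31 encodes a subunit of the linear ubiquitin ligase and lies beside IRF9. Its levels were 5.02, 5.51, 5.82 and 6.22 untreated and 4.97, 5.71, 6.10 and 6.53 treated, from SKOV-3 through DOV-13 and CAOV-3 to OVCAR-3. It differed by -0.05, 0.20, 0.28 and 0.31, with a mean of 0.18 ± 0.16 (SD, n = 4 lines, limma adjusted p = 0.996). Unlike 203882_at it was highest in OVCAR-3 both with and without pI:pC, and its difference in OVCAR-3 was 0.31 where that of 203882_at was 2.11.

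No member probe set was flagged by Dixon's gap rule, among 45 groups of 4 values (untreated, treated and difference). With so few values the rule flags little, so it does not show that no line stood apart. The gap of OVCAR-3 was 0.808 of the range for treated SOCS3 206359_at and 0.563 for the IRF9 difference, and neither was flagged.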
